A study of Mus with 6 samples.

Results

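The genes described here are 40 genes of ribosome biogenesis and growth that are commonly listed as targets of the transcription factor MYC, chosen by gene symbol. All probes that the platform annotation pairs with 1 of these symbols were taken. There were 70 such probes for 38 of the 40 genes, while the annotation named no probe for Fbl or Npm3. Of the 70 probes, 57, from 33 genes, exceeded an intensity of 32 on at least 1 array and were tested, among 18270 probes tested in all and 19057 genes with a named probe.

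RNA was measured on Illumina mouse bead arrays, 3 from Klf4-deficient and 3 from wild-type (WT) mice of the C57BL/6 strain. Klf4 encodes a zinc finger transcription factor. In both groups the cells came from bone marrow of mice with chronic myeloid leukaemia induced by BCR-ABL p210, 14 days after transplantation, and were sorted as green fluorescent, lineage-negative, Sca-1-positive and c-Kit-positive (LSK) cells, the phenotype of stem and early progenitor cells. The sources used here do not give how and in which cells Klf4 was deleted, whether animals were pooled, or whether each array stands for its own mouse. The p-values thus cover only how far these samples varied, and that variation may be technical.

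Ribosomes are built in the nucleolus. RNA polymerase I makes a long precursor RNA there, small nucleolar RNPs (snoRNPs) guide its chemical modification and cleavage, and assembly factors fold it with ribosomal proteins into the small and the large subunit. MYC raises transcription of many of these factors and of enzymes of polyamine and pyrimidine synthesis, so their RNA is often read as a sign of growth in blood progenitors and leukaemias. The series title concerns DYRK2, a kinase known to prime MYC for degradation, and the comparison made here is of Klf4-deficient against WT leukaemia cells.

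Some properties of the arrays touch every result. Each array had 7082 to 7214 probes above 32, and 60.7% of the tested values lay at or below it. WT replicate 3 stood apart from the rest. Across the 18270 tested probes its Pearson r with each of the remaining 5 was 0.287 to 0.299, against 0.662 to 0.725 among those 5, and across the 57 member probes it was 0.354 to 0.516, against 0.614 to 0.801 (across probes of shared arrays, which are not independent). The 3 Klf4 probes gave no check of the labels: the 1 value above 32 was 51.9 in WT replicate 2. Of 6 genes linked to the LSK gate 4 had a named probe, not including Ly6a, which encodes Sca-1. Their summed intensity was 160.4 to 503 in Klf4-deficient and 215.1 to 1206 in WT arrays, and of 7 tested probes 1 was higher and 6 were lower in Klf4-deficient arrays. Cd34 exceeded 32 on 1 array, at 43.2 in Klf4-deficient replicate 3. Kit, the receptor of the gate, read 67.6, 16.2 and -10.8 in Klf4-deficient arrays (replicates 1 to 3, an order kept throughout) and 12.1, 258.5 and -6.6 in WT arrays on probe ILMN_1246876, a difference of -0.65 ± 0.95 (limma adjusted p = 0.751) that turned to 0.36 without WT replicate 2. Its probe ILMN_1216898 placed the arrays otherwise, at 118.1, 7.3 and 63.1 in Klf4-deficient and 11.5, 17.4 and 381.5 in WT arrays (difference -0.24 ± 1.16). On probe ILMN_1250169 only WT replicate 3 exceeded 32, at 35.4. The summed intensity also holds Flt3, which was not a marker of the sort. Its probe ILMN_2761370 read 304.3, 229.9 and 42.2 in Klf4-deficient and 120.4, 864.1 and -12.3 in WT arrays. Flt3 thus made up most of the highest sum, 1206, which lay in WT replicate 2. The 17 lineage markers, of which 12 had a probe, summed to 2030 to 2241 in Klf4-deficient and 1076 to 2470 in WT arrays, and the B cell gene Ms4a1 stayed below 32 on all arrays. Of their 15 tested probes 5 were higher and 10 lower. Of the lower ones, 1 probe each of Csf1r, Itga2b, Lyz2, Itgam and Cd3e was highest in WT replicate 3. They read 274.3, 264, 215.1, 59.7 and 56.3 on that array, and at most 88.3 on any other. The other tested lineage probes were highest on other arrays. The haemoglobin gene Hba-a1 read 1515.8, 1762.7 and 1691.6 in Klf4-deficient arrays and 686.2, 1996.1 and 74.5 in WT arrays. Alas2, the haem synthesis enzyme of red cell precursors, read 172, 114.1 and 160.7 in Klf4-deficient and 8.8, 26.1 and -15 in WT arrays, at least 4.58-fold higher with groups that did not overlap (limma adjusted p = 0.595). It was the 1 such probe of the 15, where 3.09% of all tested probes were. Pf4, a platelet lineage chemokine, read -3.2, 0.3 and 17.2 in Klf4-deficient and 18.7, 113.1 and 81 in WT arrays. It was 2.08-fold lower after the floor, at which WT replicate 1 also lay (limma adjusted p = 0.715). The 15 proliferation markers, of which 13 were tested, summed to 3532 to 5851 in Klf4-deficient and 3974 to 4688 in WT arrays, with 15 of 26 probes higher and 11 lower. Tyms, the thymidylate synthase of DNA synthesis, read 68.9, 48.2 and 62.6 in Klf4-deficient and 151.2, 200.2 and 204.6 in WT arrays on probe ILMN_2441895. These groups did not overlap, with a difference of -1.63 ± 0.23 (limma adjusted p = 0.715). It was the 1 such probe of the 26, where 3.09% of all tested probes were. Its other tested probes had overlapping groups and both signs. ILMN_2441899 gave -0.70 ± 0.46 and ILMN_2434519 -0.54 ± 0.50, while ILMN_1247173 gave 0.47 ± 0.65 and ILMN_2484707 0.84 ± 1.18. Birc5, the mitosis protein survivin, read 179.7, 60.8 and 74.8 in Klf4-deficient and 81.5, 26 and 13 in WT arrays on probe ILMN_2603699 (difference 1.10 ± 0.59, limma adjusted p = 0.715). Its other tested probes disagreed in sign, with -0.47 ± 0.64 on ILMN_2681241 and 0.44 ± 0.87 on ILMN_2632712. The part of these markers in the results on the ribosome biogenesis genes was not tested. In such sorted samples, fewer cells of a type and less RNA per cell cannot be told apart.

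No ribosome biogenesis gene passed the test between Klf4-deficient and WT cells. Among tested probes, the share that was higher was near that of the whole array, though not in every set of probes compared. Values below 32 were set to 32, the log2 was taken, and Klf4-deficient arrays were compared with WT arrays in limma over all tested probes. Of the 57 member probes 0 were called at a Benjamini-Hochberg adjusted p under 0.05, where 0% of all tested probes were called. The adjusted p of the members lay between 0.715 and 0.992. Without adjustment, 2 member probes, or 3.51%, had p under 0.05, where 2.03% of all tested probes did, and the same 2 probes, of Fcf1 and Utp18, had groups that did not overlap, where 3.09% of all tested probes did. Both shares are near the background.

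The direction was as mixed as the calls were few. The Klf4-deficient mean was higher for 27 member probes, or 47.4%, and lower for 30, where it was higher for 45.8% of all tested probes. The median log2 difference of the members was -0.02, with quartiles of -0.33 and 0.33 and extremes of -2.19 and 2.02, and the median of all tested probes was -0.05. Among probes above 32 on at least 3 arrays, 47.1% of the 34 members were higher, against 59.4% of all 6422 such probes. The medians there were -0.04 and 0.22. With 1 probe a gene, the one with the highest mean, 57.6% of members and 45% of all were higher. The match of the shares thus held for all tested probes and not in these sets. The plot of differences shows both signs within most functional groups.

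**Figure D1:**
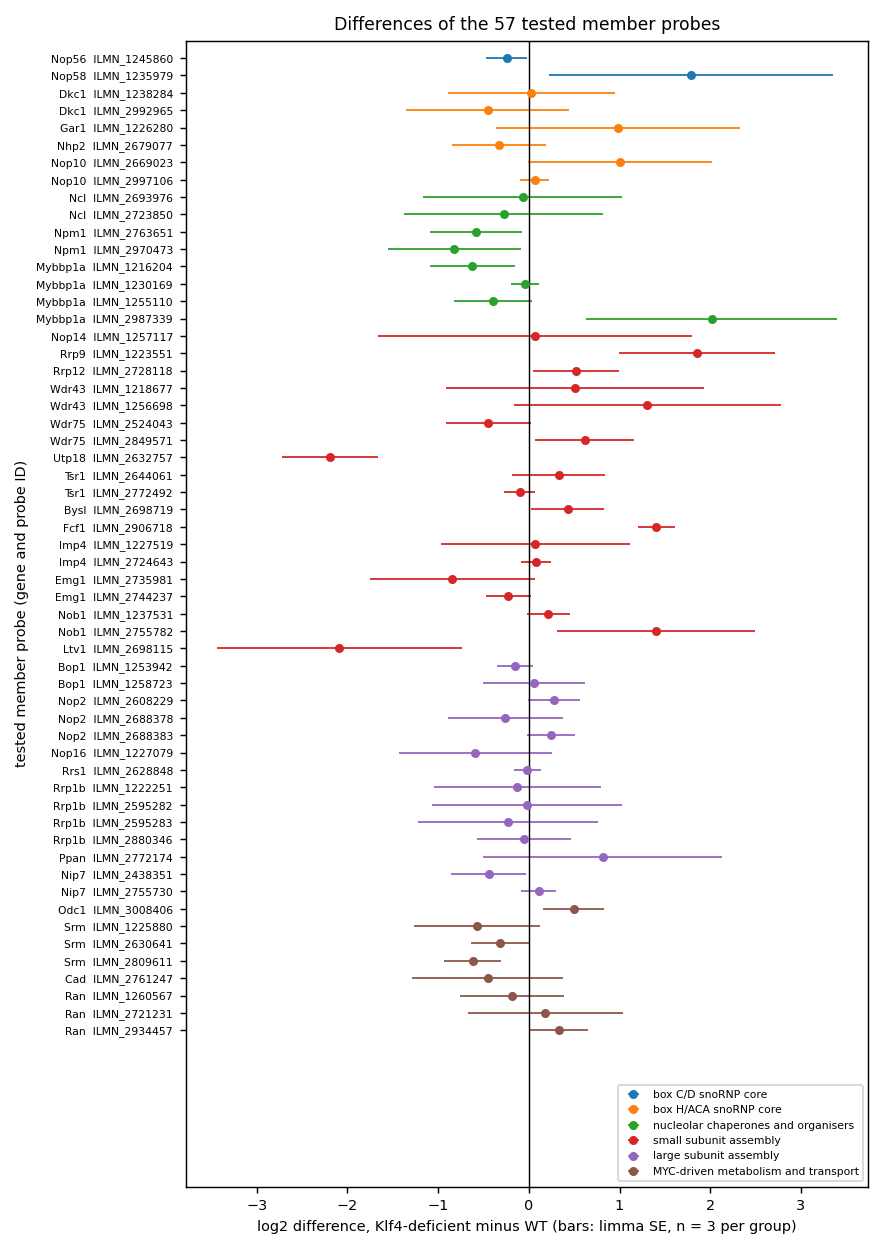
Log2 difference (x axis, Klf4-deficient minus WT, values below 32 set to 32) of each of the 57 tested member probes (y axis), coloured by function, with the limma SE as bars (n = 3 per group). The points lie on both sides of 0, from -2.19 (Utp18) to 2.02 (Mybbp1a), and relative to their bars Fcf1 and Utp18 lie farthest from 0.

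The 2 separated members both act in the small subunit processome, the particle around the U3 snoRNA that makes the early cuts in the precursor. Fcf1, the nuclease known in yeast as Utp24, read 104.8, 101.7 and 75.9 in Klf4-deficient arrays, compared with 37.7, 36.1 and -6.2 in WT arrays. All 3 Klf4-deficient values lay above all WT values, and the WT values lay at or just above the floor. The difference was 1.41 ± 0.21 (log2, SE, n = 3 per group), or 2.65-fold, with a limma adjusted p of 0.715. It depended on the floor, at 0.54 with a floor of 64.

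Utp18, a WD-repeat protein of the same particle, pointed the other way. It read 7.9, 36.4 and 71.9 in Klf4-deficient arrays, compared with 196.7, 116.2 and 349.2 in WT arrays. The groups did not overlap, and the Klf4-deficient mean was 4.57-fold lower (-2.19 ± 0.53 log2, SE, n = 3 in each group, limma adjusted p = 0.715). Its value stayed between -2.58 and -1.59 under the 16 alternative settings tried. Each of these genes had 1 probe on the array, so neither had a further probe to set beside it.

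**Figure D2:**
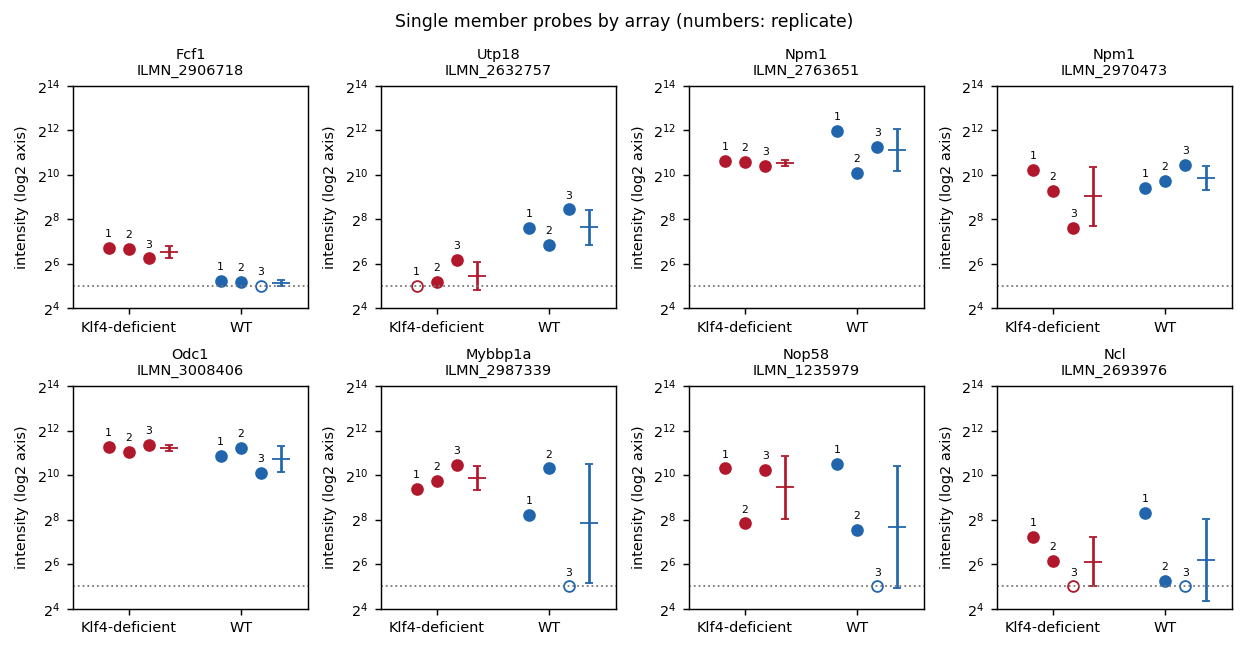
Intensity on a log2 axis of 8 member probes in Klf4-deficient (left) and WT (right) arrays, each point 1 array with its replicate number, open points at or below 32 and drawn there (dotted line), and the mean ± SD of the log2 values beside the points (n = 3). Fcf1 and Utp18 have groups that do not overlap, while WT replicate 3 lies at the floor for Fcf1, Mybbp1a, Nop58 and Ncl.

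The other small subunit factors spread widely. Of the 14 genes of this group 13 were tested, with 19 probes, of which 13 had the higher and 6 the lower mean in Klf4-deficient arrays (median 0.21 log2, adjusted p from 0.715 to 0.985). Without WT replicate 3 the count was 11 higher and 7 lower, with a median of 0.12. Rrp9, a protein specific to the U3 snoRNP, read 307.1, 157.8 and 13.4 in Klf4-deficient arrays and 4.8, 14.9 and 6.2 in WT arrays. It was thus above the floor on 2 of 3 Klf4-deficient arrays and on 0 WT arrays, 3.62-fold higher after the floor (limma adjusted p = 0.715). This fold is not a lower bound, since Klf4-deficient replicate 3 also lay at the floor.

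Ltv1, a factor of late small subunit maturation, ranged from -9.5 to 84.9 in Klf4-deficient and from -13 to 1085.8 in WT arrays. Emg1, a methyltransferase of the small subunit RNA, ranged from 183.2 to 373 in Klf4-deficient and from 201.2 to 1841.6 in WT arrays on probe ILMN_2735981. The highest value of both lay in WT replicate 3. Nob1, the endonuclease that trims the end of the small subunit RNA, ranged from -5 to 485.3 in Klf4-deficient and from 0.7 to 87.6 in WT arrays on its brightest probe.

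Wdr43 and Wdr75 belong to the subcomplex of the processome that joins the precursor first. The 2 Wdr43 probes ranged from 54.5 to 650 and from 36.9 to 1190.6 in Klf4-deficient arrays, and from -3.1 to 640.1 and from -4.4 to 221.9 in WT arrays. Both were highest in Klf4-deficient replicate 3 and lowest in WT replicate 3. The probe ILMN_2849571 of Wdr75 was above the floor on all arrays, at 91.6 to 134.9 in Klf4-deficient and 37.1 to 147.6 in WT arrays. Nop14, another processome protein, ranged from 3.2 to 652.6 in Klf4-deficient and from 7.5 to 560.7 in WT arrays, so that nearly the whole range was spanned within each group. Imp4, a U3 partner, ranged from 94 to 149.1 in Klf4-deficient and from -10.1 to 500.3 in WT arrays on probe ILMN_1227519.

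The remaining small subunit factors were dim. Tsr1, a GTPase-like protein of late assembly, reached 75.7 in Klf4-deficient and 76.6 in WT arrays. Bysl (bystin) exceeded 32 on 1 array, at 78.2 in Klf4-deficient replicate 3, and Rrp12, an export factor in yeast, on 1 array, at 94.2 in Klf4-deficient replicate 2. The single Utp20 probe stayed at or below 2.7 on all arrays.

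The box C/D snoRNPs, which guide methylation of ribosomal RNA, were represented by their scaffold proteins Nop56 and Nop58, since their methyltransferase Fbl (fibrillarin) had no named probe. Nop58 read 1263.6, 227.6 and 1206.1 in Klf4-deficient arrays, compared with 1439.2, 183.8 and -0.7 in WT arrays on probe ILMN_1235979. The groups overlapped except for WT replicate 3. The difference was 1.79 ± 1.57 (log2 ± SE, n = 3 in each group, limma adjusted p = 0.715). It was 0.45 without WT replicate 3, 3.20 without WT replicate 1 and 0.28 with array weights. The other Nop58 probe was at or below 13.1 on all arrays. Nop56 stayed near the floor, with 20, 33.7 and -11.5 in Klf4-deficient and 36.2, 49.6 and -4.1 in WT arrays (difference -0.25 ± 0.22, adjusted p = 0.715).

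The box H/ACA snoRNPs, which guide pseudouridine formation and are also part of telomerase, are built from dyskerin (Dkc1), the pseudouridine synthase, with Gar1, Nhp2 and Nop10. On 6 tested probes, 4 differences were positive and 2 negative. Dkc1 read 166, 59.9 and 53.8 in Klf4-deficient arrays, compared with 264.8, 59.4 and -3.3 in WT arrays on probe ILMN_1238284. Its probe ILMN_2992965 read 52.9, 69 and 35.1 in Klf4-deficient and 263.8, 38.8 and -2.1 in WT arrays. On both probes the WT arrays held the highest value, in replicate 1, and the lowest, in replicate 3. The differences were 0.03 ± 0.92 and -0.45 ± 0.90 (log2 ± SE, n = 3 in each group, limma adjusted p = 0.987 and 0.809), and turned to -0.63 without WT replicate 3 and to 0.52 without WT replicate 1.

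Gar1 read 940.4, 358.4 and 231.5 in Klf4-deficient arrays, compared with 394.6, 792.4 and -13.7 in WT arrays on probe ILMN_1226280. Its difference of 0.99 ± 1.34 (adjusted p = 0.737) turned to -0.39 without WT replicate 3. Nop10 read 134.8, 368.8 and 165.6 in Klf4-deficient arrays, compared with 80.3, 393.9 and -13.6 in WT arrays on probe ILMN_2669023. Its difference of 1.01 ± 1.01 (adjusted p = 0.715) was 0.18 without WT replicate 3. For these partners, too, the gap between groups came with the lowest value in that array.

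Nhp2, the RNA-binding partner, read 59.2, 14.4 and 68.1 in Klf4-deficient and 115.7, 39.5 and 56.2 in WT arrays on probe ILMN_2679077 (difference -0.33 ± 0.52, adjusted p = 0.763, and 0.10 without WT replicate 1). A further probe each of Gar1 and Nhp2 stayed below 32 on all arrays, and that of Nop10 exceeded it on 1 array, at 36.8 in Klf4-deficient replicate 3.

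Of the nucleolar chaperones and organisers, 5 of 6 genes had a probe and 3 were tested, with 8 probes, of which 1 was higher and 7 were lower in Klf4-deficient arrays (median -0.34 log2, adjusted p from 0.715 to 0.978). The counts were the same without WT replicate 3, with a median of -0.52. Of the 8 probes 4 belong to Mybbp1a, so these are not 8 independent genes.

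Nucleophosmin (Npm1), a histone chaperone of the nucleolus whose gene is often mutated in acute myeloid leukaemia, was among the few members above the floor on all arrays. On probe ILMN_2763651 it read 1558.5, 1547.1 and 1346.3 in Klf4-deficient arrays, compared with 4044.3, 1097.5 and 2464.4 in WT arrays. On probe ILMN_2970473 it read 1190.6, 623 and 196.2 in Klf4-deficient arrays, compared with 679, 857.8 and 1381 in WT arrays. Both probes had the lower mean in Klf4-deficient arrays and groups that overlapped. The differences were -0.58 ± 0.51 and -0.82 ± 0.73 (log2 ± SE, n = 3 in each group, limma adjusted p = 0.715 for each). The first was -0.15 without WT replicate 1 and -1.09 without WT replicate 2, and the second was -0.11 when Klf4-deficient replicate 3 was left out and -1.41 when replicate 1 was.

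Nucleolin (Ncl), an RNA-binding protein of the nucleolus, read 149.3, 70.1 and -2.9 in Klf4-deficient arrays, compared with 315.9, 38.1 and 8.5 in WT arrays on probe ILMN_2693976. Its probe ILMN_2723850 read 132.9, 41.6 and -14.4 in Klf4-deficient and 299.6, 32.9 and -13.7 in WT arrays. The probes gave the same order of the arrays above the floor, with WT replicate 1 highest and Klf4-deficient replicate 1 next. The differences were -0.07 ± 1.10 and -0.28 ± 1.10 (adjusted p = 0.978 and 0.906), and turned to 0.99 and 0.79 without WT replicate 1 and to 0.49 and 0.13 without Klf4-deficient replicate 3.

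Mybbp1a, a nucleolar protein that binds MYB and p53, had 5 probes, which disagreed. Probe ILMN_2987339 ranged from 674.6 to 1399.4 in Klf4-deficient and from -10.9 to 1258.8 in WT arrays, with the lowest value in WT replicate 3, and had a positive difference of 2.02 ± 1.38 (adjusted p = 0.715). The other 3 tested probes, all below 100 on every array, had differences of -0.62 to -0.04. Nucleostemin (Gnl3), a GTP-binding protein of stem cell nucleoli, read -5.3, -9.8 and -3 in Klf4-deficient and -8.8, 30.9 and -8.7 in WT arrays. It was thus below the floor throughout, as was Nolc1, a chaperone of snoRNPs, with no value over -0.2.

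The large subunit factors were mostly near the floor. Of 9 genes 7 were tested, with 14 probes, of which 5 were higher and 9 were lower in Klf4-deficient arrays (median -0.04 log2, adjusted p from 0.715 to 0.992). Without WT replicate 3 the count was 5 higher and 8 lower, with a median of -0.15. Bop1, Pes1 and Wdr12 form a complex needed to process the large subunit RNA. Bop1 read 8.5, 84.1 and 2.5 in Klf4-deficient and 75.3, 4.3 and 7.4 in WT arrays on probe ILMN_1258723, above the floor on 1 array of each group. The difference was 0.05 ± 0.56 (adjusted p = 0.966), and -0.41 when Klf4-deficient replicate 2 was left out and 0.46 without WT replicate 1. Its other probe exceeded 32 only in WT replicate 1, at 43.6. Pes1 read -3.7, 8.9 and 30.3 in Klf4-deficient and 9.9, 22.8 and 20.5 in WT arrays. Wdr12 read -3.4, 0.7 and -4.2 in Klf4-deficient and 19.2, 2.5 and 1.3 in WT arrays. Both stayed below the floor on all arrays, so a difference in either was not detectable.

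Rrp1b, a nucleolar protein of large subunit processing, had 4 probes. Of these, 3 were highest in WT replicate 1, at 164.5 to 294.2, and the fourth, ILMN_2880346, in WT replicate 2, at 77.5. All 4 differences were negative, from -0.23 to -0.02, and smaller than their SE of 0.52 to 1.05. Nop16 was likewise highest in WT replicate 1, at 208.1, with 12.2 to 61.3 in Klf4-deficient arrays and 10.2 and 14.4 in the other WT arrays. Ppan, the homologue of a yeast large subunit factor, was tight in Klf4-deficient arrays, at 216 to 238.7, and ranged from -5.5 to 983.9 in WT arrays, with the highest value in WT replicate 3.

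Nop2, a methyltransferase of the large subunit RNA, exceeded 32 on 1 or 2 arrays on each of its 3 probes, reaching 67 in Klf4-deficient and 114.4 in WT arrays. Nip7, another conserved large subunit factor, reached 43.1 in Klf4-deficient and 80.6 in WT arrays on its 2 tested probes. Rrs1, which helps to place a small ribosomal RNA in the large subunit, exceeded 32 only in WT replicate 1, at 33.1.

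The members outside the ribosome are enzymes that MYC is known to induce and the nuclear transport GTPase Ran. Of their 8 probes 3 were higher and 5 were lower in Klf4-deficient arrays (median -0.25 log2, adjusted p from 0.715 to 0.922), and 4 and 4 without WT replicate 3, with a median of -0.15. Ornithine decarboxylase (Odc1), which makes putrescine, the first polyamine, read 2430.7, 2125.6 and 2591.2 in Klf4-deficient arrays, compared with 1854.6, 2370 and 1090.9 in WT arrays. It was measured well above the floor on all arrays, and the groups overlapped through WT replicate 2. The difference was 0.49 ± 0.33 (log2 ± SE, n = 3 in each group, limma adjusted p = 0.715), and 0.18 without WT replicate 3.

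Spermidine synthase (Srm), the next enzyme of that pathway, had 3 probes with negative differences. On probe ILMN_1225880 it read 11, 12.2 and 93.9 in Klf4-deficient arrays, compared with 126.9, 77.8 and -1.7 in WT arrays. On probe ILMN_2809611 it read -2.2, 9.7 and -14.8 in Klf4-deficient arrays, compared with 55.7, 66.4 and -17.3 in WT arrays. The third, ILMN_2630641, read 16.1, 4.4 and 5.9 in Klf4-deficient and 62.1, 26.9 and 9 in WT arrays. WT replicate 1 was above the floor on all 3 probes, and Klf4-deficient arrays on 1 value in 9. The differences were -0.57 ± 0.70, -0.62 ± 0.31 and -0.32 ± 0.32 (log2 ± SE, n = 3 in each group, limma adjusted p = 0.718, 0.715 and 0.715). All Klf4-deficient values of ILMN_2809611 and ILMN_2630641 lay at the floor, and the probes were 1.53-fold and 1.25-fold lower after it. These folds are not lower bounds, since WT replicate 3 also lay at the floor on both probes. WT replicate 2 did so on ILMN_2630641. The difference of ILMN_1225880 was -0.12 without WT replicate 1, and that of ILMN_2809611 was -0.02 with a floor of 64.

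Cad, the enzyme that starts pyrimidine synthesis, read 84.7, 43.4 and 19.3 in Klf4-deficient and 44.6, 21.7 and 210.8 in WT arrays. Its difference of -0.45 ± 0.83 (adjusted p = 0.795) turned to 0.38 without WT replicate 3, which held the highest value. Ran read 238.9, 234.9 and 328.5 in Klf4-deficient arrays, compared with 323.3, 65.7 and 597.6 in WT arrays on probe ILMN_2721231. Its probe ILMN_1260567 read 55.4, 71.4 and 65.6 in Klf4-deficient and 141.3, 84.1 and -0.4 in WT arrays. The 2 probes gave WT replicate 3 opposite places, highest on ILMN_2721231 and lowest on ILMN_1260567. Their differences were 0.18 ± 0.85 and -0.18 ± 0.58 (adjusted p = 0.922 and 0.881), and turned to -0.73 without WT replicate 2 and 0.30 without WT replicate 1. The third Ran probe, ILMN_2934457, read 9.1, 63.4 and 10.1 in Klf4-deficient and 29.5, 5.2 and -2.1 in WT arrays.

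**Figure D3:**
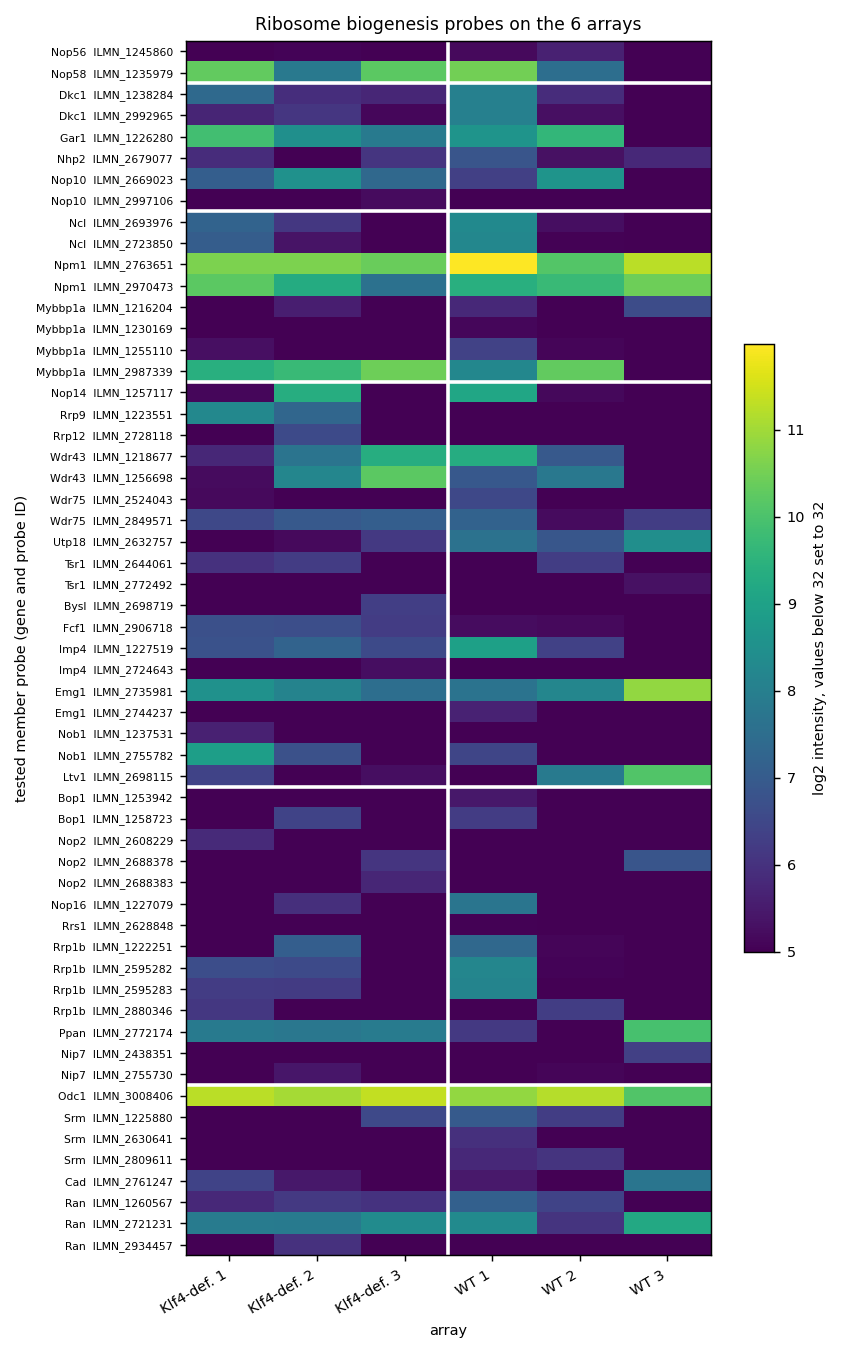
Log2 intensity (colour, values below 32 set to 32) of the 57 tested member probes (rows, grouped by function) on the 3 Klf4-deficient (left) and 3 WT (right) arrays. Rows are read across, not against each other; many rows that are bright on the other 5 arrays are dark in WT replicate 3, and Ncl, Dkc1, Nop16 and 3 of the 4 Rrp1b probes are brightest in WT replicate 1.

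Member probes were spread unevenly over the arrays, compared with all tested probes. WT replicate 1 held the highest value of 22 member probes, or 38.6%, from 15 genes, where it held the highest value of 14.1% of all tested probes. Among the 34 members above 32 on at least 3 arrays it was highest for 15, or 44.1%, against 16.6% of the 6422 such probes. WT replicate 3 differed from it. It had 15 of the 57 member probes above 32, or 26.3%, where the other arrays had 27 to 41, and where it had 38.8% of all tested probes above 32. Among probes above 32 on at least 3 arrays the shares were closer, at 35.3% of the 34 members and 41.3% of all 6422.

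For 11 member probes WT replicate 3 was the 1 array at or below 32 while the other 5 were above it, which is 19.3% of members and 7.99% of all tested probes. Members were also above 32 on exactly 5 arrays more often, at 24.6% (14 probes) against 10% of all tested probes. WT replicate 3 was thus the missing array for most such probes in both sets. The 11 probes belong to Nop58, Dkc1, Gar1, Nop10, Mybbp1a, Wdr43, Fcf1, Imp4 and Ran. No other array was alone at the floor for more than 1 member probe. The same array held the highest value of 11 other member probes, or 19.3%, against 29.2% of all tested probes, from Npm1, Mybbp1a, Utp18, Tsr1, Emg1, Ltv1, Nop2, Ppan, Nip7, Cad and Ran. Among probes above 32 on at least 3 arrays this order turned, with 23.5% of members and 19.4% of all highest there. The spread between arrays of a group was wider in WT. The median SD of the members was 0.54 in Klf4-deficient and 0.82 in WT arrays (log2), against 0.31 and 0.64 over all tested probes. Members and all tested probes are not alike in this, since values at the floor lower the SD. Only 26.3% of members exceeded 32 on exactly 1 array, against 46.8% of all tested probes.

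**Figure D4:**
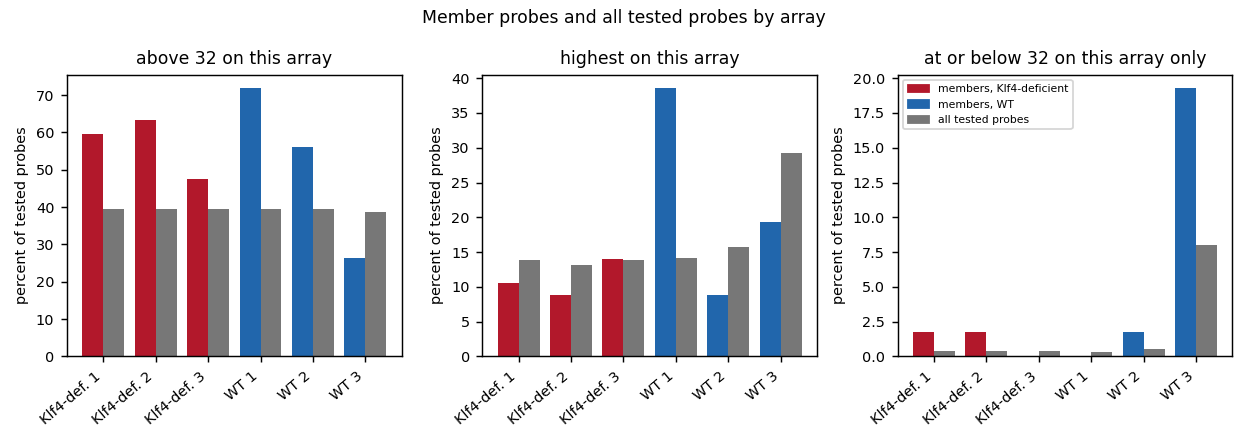
Percent of tested probes (y axes) that were above 32 on an array (left), had their highest value on it (middle), or were at or below 32 on it alone (right), for each of the 6 arrays, with the 57 member probes in colour and all 18270 tested probes in grey. WT replicate 1 holds the highest value of 38.6% of member probes, and WT replicate 3 has 26.3% of them above 32.

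The median of the members followed these 2 arrays in opposite directions. Without WT replicate 1 it was 0.32, with 38 member probes higher and 14 lower, while the median of all tested probes was 0.01. Without WT replicate 3 it was -0.21, with 24 higher and 31 lower, against 0.06 over all tested probes. Without WT replicate 2 it was -0.15, and without 1 of the Klf4-deficient arrays it lay between -0.08 and 0.13. No member was called in any of these fits. Without WT replicate 3, 4 members had an unadjusted p under 0.05, which were Fcf1, Ppan, Srm and Utp18, at 7.27% of members and 3.56% of all probes tested there. Without WT replicate 2 there were 5, at 8.77% against 4.73%.

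**Figure D5:**
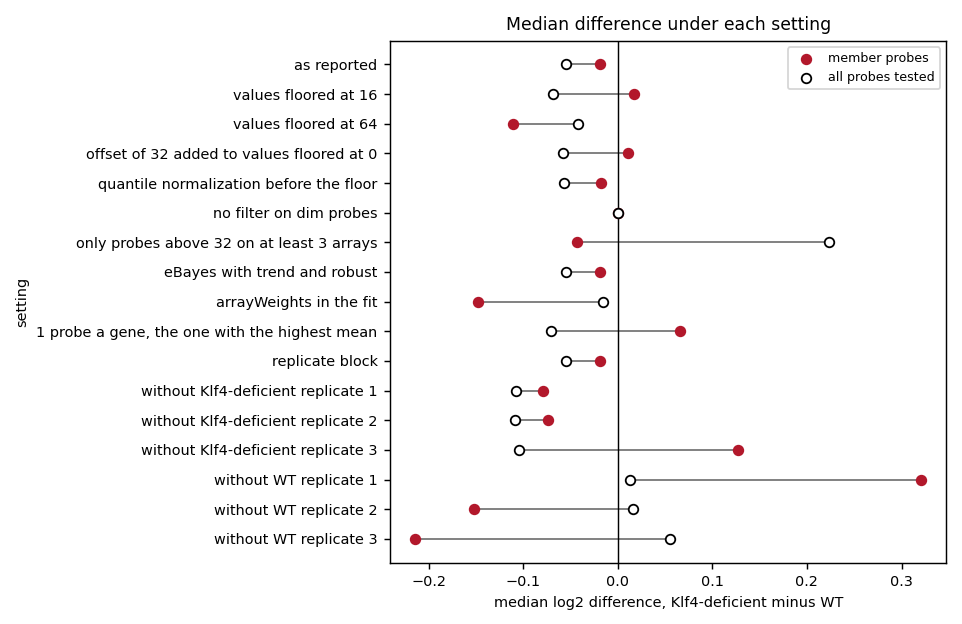
Median log2 difference (x axis, Klf4-deficient minus WT) of the tested member probes (filled) and of all tested probes (open) as reported and under each alternative setting (y axis). The member median runs from -0.21 without WT replicate 3 to 0.32 without WT replicate 1, on both sides of 0.

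Probes of the same gene often disagreed. Of 17 members with several tested probes, 9 had differences of 1 sign, or 52.9%, where 49.8% of all 3148 such genes did. With exactly 2 tested probes these shares were 58.3% of 12 members and 58.8% of all 2175 such genes. Probe sequences were not used here, so probes that detect other transcripts, such as processed pseudogenes of Npm1 or Ran, cannot be told apart from the rest.

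Regulators upstream of the members were compared in the same fit. Myc read 29, 47.8 and 9.5 in Klf4-deficient arrays, compared with 43.9, 71.7 and -0.9 in WT arrays on probe ILMN_2623526, and 22.9, 11.2 and 66.3 in Klf4-deficient and 46.9, 34 and -1.9 in WT arrays on probe ILMN_1231123. It stayed near the floor on all arrays and, like many members, was lowest in WT replicate 3. The differences were -0.35 ± 0.37 and 0.14 ± 0.37 (log2 ± SE, n = 3 in each group, limma adjusted p = 0.715 and 0.862), and ILMN_1231123 gave -0.21 without Klf4-deficient replicate 3. The probe ILMN_2623526 gave -0.035 without WT replicate 2 and -0.62 without WT replicate 3. The MYC network list of 14 genes holds the MYC genes, Max and its other partners and the MLX family. It also holds Zbtb17, a partner of MYC in repression, and Fbxw7, a ubiquitin ligase subunit that targets MYC. Of these genes 10 were tested with 13 probes, 10 higher and 3 lower in Klf4-deficient arrays (median 0.33 log2). Without WT replicate 3, 2 probes had an unadjusted p under 0.05, where 3.56% of all probes tested there did. With all arrays 0 were called and 0 reached that level. Those with the smallest p were Zbtb17, at -3.9, 39.3 and 36.4 in Klf4-deficient and 102.7, 79.1 and 18 in WT arrays, and Mxd1, a MAX partner that opposes MYC, at 86.5, 19.4 and 246.2 in Klf4-deficient and 42.1, 33.3 and 15.4 in WT arrays. Their differences were -0.84 ± 0.48 and 1.31 ± 0.77 (limma adjusted p = 0.715 for each), -1.33 for Zbtb17 without WT replicate 3 and 0.57 for Mxd1 without Klf4-deficient replicate 3.

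RNA polymerase I and its initiation factors, which make the precursor that the members process, had 4 of 19 tested probes with groups that did not overlap, where 3.09% of all tested probes did. The list was drawn up with other results of these data known, and 11 of its genes were tested, with 13 probes higher and 6 lower in Klf4-deficient arrays (median 0.56 log2). Of these probes 0 were called and 4 had an unadjusted p under 0.05, from Taf1d, Twistnb and Polr1c, where 2.03% of all tested probes did. Without WT replicate 3, 11 were higher and 8 lower (median 0.16). Again 4 were at that level, where 3.56% of all probes tested there were.

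Taf1d, a subunit of the selectivity factor that places the polymerase on ribosomal DNA, read 118.2, 166.3 and 189.4 in Klf4-deficient arrays, compared with 58.8, 2.9 and 27.2 in WT arrays. Twistnb, a stalk subunit of the polymerase, read 439.1, 113.2 and 325.2 in Klf4-deficient and 49.4, 15.2 and 1.4 in WT arrays on probe ILMN_2466121, and 430.1, 127.2 and 381.2 in Klf4-deficient and 108.2, 9.4 and -5.6 in WT arrays on probe ILMN_1231779. On these 3 probes, as on that of Polr1c, the groups did not overlap, and WT replicate 3 had the lowest sum over the list, at 319.7, with 1786 to 3520 on the other arrays. The differences were 1.98 ± 0.34 for Taf1d, and 2.77 ± 0.57 and 2.52 ± 0.72 for Twistnb (log2 ± SE, n = 3 in each group, limma adjusted p = 0.715 for each). They were positive under all 16, 15 and 16 settings that gave a value, at 1.84, 2.67 and 2.23 without WT replicate 3. The second Taf1d probe, ILMN_3136867, had a difference of the other sign, -0.51 ± 0.53.

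Further assembly factors outside the 40 genes were as mixed as the members. Of 31 other small subunit genes, 25 were tested with 40 probes, 23 higher and 17 lower in Klf4-deficient arrays (median 0.14 log2), with 0 at an unadjusted p under 0.05. The smallest p values were those of Nol10, at 52, 278.8 and 983.9 in Klf4-deficient and 42, 41.5 and -15.6 in WT arrays on probe ILMN_2999642, and Utp15, at 116.1, 41.2 and 375.4 in Klf4-deficient and -4, 21.8 and 8.1 in WT arrays. On these probes the groups did not overlap, which is 2 of the 40 probes, against 3.09% of all tested probes. The difference was 2.67 ± 1.09 for Nol10 and at least 3.80-fold for Utp15 (limma adjusted p = 0.715 for each). On the log2 scale these were 1.66 and 1.11 without Klf4-deficient replicate 3. The second Nol10 probe, ILMN_1256181, had overlapping groups and a difference of 0.62 ± 1.39.

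Of 32 other large subunit genes, 30 were tested with 44 probes, 18 higher and 26 lower (median -0.16 log2). An unadjusted p under 0.05 was found for 2 of them and for 2.03% of all tested probes. Sdad1, the homologue of a yeast large subunit export factor, read 219.9, 122.4 and 204.6 in Klf4-deficient arrays, compared with 278.9, 460.8 and 561.8 in WT arrays. Gnl2, a GTPase of nucleolar large subunit assembly, read 46.6, 11.2 and 24.4 in Klf4-deficient arrays, compared with 379.5, 360.2 and 49.2 in WT arrays on probe ILMN_2770686. On these probes the groups did not overlap, with Klf4-deficient arrays below WT. Their differences were -1.24 ± 0.38 and -2.38 ± 0.88 (limma adjusted p = 0.715 for each). Of the 44 probes 3 had groups apart, where 3.09% of all tested probes did. The third was ILMN_2650392 of Rbm28, also lower in Klf4-deficient arrays, at -0.56 ± 0.36. The second Gnl2 probe, ILMN_2798753, had overlapping groups and a difference of -0.59 ± 0.43. Of the polyamine and Ran cycle partners, 6 of 14 genes were tested with 9 probes, 6 higher and 3 lower (median 0.67 log2), and 0 had an unadjusted p under 0.05. Smox, the spermine oxidase, read 73.9, -2.1 and 55.3 in Klf4-deficient and 12.7, 1.4 and 27.8 in WT arrays on probe ILMN_1247267. Rangap1, which switches off Ran, read 746.9, 504.6 and 702 in Klf4-deficient and 474.3, 353.8 and -6.7 in WT arrays on probe ILMN_1250837. The groups of this probe and of ILMN_2868997, also of Rangap1, did not overlap. These are 2 of the 9 probes but 1 gene, against 3.09% of all tested probes. Their differences were 1.87 ± 1.10 and 1.88 ± 1.12 (limma adjusted p = 0.715 for each), and 0.65 and 0.63 without WT replicate 3. The third tested Rangap1 probe, ILMN_1236888, had overlapping groups and a difference of 1.20 ± 1.06.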

How the data were processed

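The deposited values are intensities of Illumina bead arrays on a linear scale, with 45281 probes on each of 6 arrays. The submitters' processing notes name BeadStudio; the sources used here do not give its version, background method or normalization. The deposited intensities ran from -31 to 37007.2, so a background had been subtracted, and sorted columns lay within 5% or 0.15 of each other at 95.4% of ranks, so the columns were taken as already scaled together and not normalized again. Such scaling hides differences in total RNA. Without detection p-values, 32 served as the floor, which limits precision for dim probes. A fold against a group wholly at the floor is written as at least that size where the other group lay wholly above it.

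Groups and replicate numbers came from the sample titles. Probes were named through the platform annotation, updated through a RefSeq gene list: 34885 carried 1 symbol, 18 carried several, and for 10378 the annotation has no entry. Each of the 18270 probes above 32 on at least 1 array was fitted on its own in limma 3.58.1 (lmFit and eBayes, R 4.3.3). Adjusted p-values (Benjamini-Hochberg) cover all of these probes, with a threshold of 0.05. The step was tested on simulated data. Alternatives changed the floor, offset, normalization, filter, variance model, array weights, probe choice and replicate block, and left out each array. Figures used matplotlib 3.10.9 and pandas 2.3.3.

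The members and lists were chosen with earlier results of these data known. Values by array were given for the snoRNP cores, Ncl, Npm1, Gnl3, Bop1, Pes1, Wdr12, Odc1, Srm, Cad, Ran, Myc and members with an unadjusted p under 0.05 or groups that did not overlap, and for at most 2 genes of each other list, by smallest p. Rrp9, Mybbp1a, Polr1c, Rbm28, Hba-a1 and the range-only members described singly were picked after their values were seen. So were Ms4a1, Csf1r, Itga2b, Lyz2, Itgam, Cd3e and Flt3. No set test was run. No sequences or genome positions were used, since no build is named in the sources used here.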

Additional observations from a re-analysis of the deposited data

How the results depend on the processing

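The 24 member probes whose differences are given by value under the stated rule were refitted under 16 alternatives, with 360 values, and none was called (lowest adjusted p 0.293). The sign was kept throughout for 14 probes and changed for 10, in 23 values. Over all probes, limma called 0 at an adjusted p under 0.05, with 371 at an unadjusted p under 0.05, and 1 without a filter on dim probes (the unnamed probe ILMN_2944601), where probes at the floor on all arrays enter the variance model. Members called stayed at 0 under all 16. Members at an unadjusted p under 0.05 were 2 as reported (3.51% against 2.03% of all tested probes) and 3 with a floor of 16 (4.76% against 2.27%). With the offset the 2 were Rrp9 and Utp18 (3.51% against 3.2%). Among probes above 32 on at least 3 arrays there was 1 (2.94% against 3.85%). There were 0 with trend and robust eBayes (0% against 0.958%) and 4 with array weights (7.02% against 3.3%). With an array left out there were 2 to 5 (3.64% to 8.77% against 2.61% to 4.73%). The member median of -0.02 lay between -0.21 and 0.32 with an array left out. With array weights the differences turned to -0.73 for Dkc1 ILMN_1238284, -0.22 for Gar1, -0.15 for Bop1 and 0.26 for Cad. Dkc1 ILMN_1238284 was -0.22 with a floor of 64, and Ran ILMN_1260567 was 0.15 with a floor of 16 and also with an offset of 32. With an array left out, Dkc1 ILMN_1238284 lay between -0.63 and 0.90 and ILMN_2992965 between -1.005 and 0.52, Gar1 between -0.39 and 1.93, Nhp2 between -0.67 and 0.10, and Ncl between -0.66 and 0.99 on ILMN_2693976 and -0.90 and 0.79 on ILMN_2723850. Bop1 lay between -0.41 and 0.46, Cad between -0.98 and 0.38, and Ran between -0.77 and 0.30 on ILMN_1260567 and -0.73 and 0.86 on ILMN_2721231. Probes of the other lists were refitted under the same settings, a choice made after seeing the data. There the second Myc probe turned to -0.024 with a floor of 16, to -0.011 with array weights, and lay between -0.21 and 0.31 with an array left out. Kit ILMN_1246876 lay between -1.15 and 0.36 with an array left out. The causes were not tested. The samples were not treated as paired by replicate number, since deviations of same-numbered arrays correlated at 0.0322 to 0.0401, below the 0.1 set as the limit. With 3 arrays per group and 60.7% of tested values at the floor, this check cannot exclude pairing. With the replicate number as a block 0 probes were called and the member median was -0.02. There 2 members had an unadjusted p under 0.05 (3.51% against 1.98% of all tested probes). Values near 32 limit what can be seen of Gnl3, Pes1, Wdr12, Nolc1 and Utp20.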
